A study of Mus musculus with 12 samples.

Results

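Queuosine-type tRNAs are the tRNAs for aspartate (Asp), asparagine (Asn), histidine (His) and tyrosine (Tyr), and 51 of the 435 tRNA loci in a table of 2030 small RNA features belonged to them. A locus was taken as a member when its name gave Asp, Asn, His or Tyr before the 3-letter anticodon, whatever its level. Small RNA was sequenced from mouse oocytes that were picked by hand from ovaries without hormone stimulation, in 12 libraries of 3 groups with 4 libraries each. The descendants had a wild type genotype, with Khdc3-null grandfathers and wild type grandmothers. The Khdc3-null group carried the null genotype itself, and the wild type group had wild type ancestors only. Khdc3 encodes a member of the oocyte's subcortical maternal complex, and the series concerns its effect on metabolism across generations. Khdc3 mRNA was not measured here, so the genotype labels were not checked. The labels give no age, litter or number of animals per library. Replicate numbers only name the libraries of a group, in the order in which the series lists them, and a shared number does not pair libraries of different groups. P-values measure the spread between these libraries, which may be technical.

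Queuosine is a modified guanosine at the wobble position of the anticodon, the base that reads the last letter of a codon. The enzyme tRNA-guanine transglycosylase, with catalytic subunit Qtrt1 and partner Qtrt2, puts the base queuine in place of the encoded guanine, and mammals take queuine from diet and gut microbes. In tRNA-Asp and tRNA-Tyr the queuosine carries a further sugar. In tRNA-Asp it is known to favour methylation by DNMT2, and tRNAs with queuosine are known to be cut less readily by angiogenin. Counts of small RNA reads do not show whether the base was modified. They also do not separate fragments of a tRNA from whole molecules.

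The members were 16 Asp loci, 14 Asn loci, 11 His loci and 10 Tyr loci. All Asp loci had the anticodon GTC, all Asn loci GTT, all Tyr loci GTA and 10 of the His loci GTG, each with the guanine that is exchanged in first place. The remaining His locus, chr1.trna717-HisATG, had A in that place, so its encoded anticodon went against the label queuosine-type. RefSeq on GRCm38.p6, the same assembly as the mm10 build of the alignment, listed 16 AspGTC, 13 AsnGTT, 10 HisGTG, 10 TyrGTA genes and 1 HisATG gene. The Asp and HisGTG genes were 72 bases long and the Asn genes 74 bases. The Tyr genes were 86 to 93 bases long, and tRNA-Tyr genes are known to contain an intron.

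Many of the genes lay in clusters. On chromosome 13, 6 TyrGTA genes lay between 23425646 and 23467165, and 3 AspGTC genes lay between 21911313 and 21940390. On chromosome 1, 5 AspGTC genes lay between 171037029 and 171102442. On chromosome 3, 6 HisGTG genes lay between 96410069 and 96500437, within reach of 6 AsnGTT genes between 96322074 and 96497854. Because copies in a cluster share an anticodon and a chromosome, only 10 loci could be tied to 1 gene by these. Of these 10, chr4.trna1691-HisGTG lay in an intron of Nfib at 82619623 to 82619694 on chromosome 4. The locus chr2.trna511-AspGTC lay in an intron of Aqr at 114103367 to 114103438 on chromosome 2. The locus chr10.trna390-AsnGTT lay in an untranslated exon of Ndufs7 at 80249159 to 80249232 on chromosome 10, and the other 7 were intergenic in GENCODE M21.

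Levels are given in RPM, the reads of a locus scaled so that each library has the same total, after the 1 that the deposited values carried was subtracted. Mapped reads ranged from 2918620 to 7640554 per library, so that 3 reads, the upper limit that a count of 0 allows, were 0.393 to 1.03 RPM. Reads carried no molecular identifiers, and such limits cover counting error only. Since RPM are relative, fewer cells of a type and less RNA per cell cannot be told apart. Markers of other ovarian cells were present in every library. The summed level of the 8 of 9 granulosa cell hairpins in the table was 3355 to 4052 RPM in descendants, 3680 to 4871 RPM in the Khdc3-null group and 3551 to 4939 RPM in the wild type group. The 7 of 7 stroma and vessel hairpins summed to 6970 to 8390 RPM in descendants, 9407 to 10708 RPM in the Khdc3-null group and 9009 to 12315 RPM in the wild type group, with all descendant libraries below all others. Sums of 5 of 6 early embryo and oocyte hairpins were 77.3 to 114 RPM in descendants, 52.1 to 107 RPM in the Khdc3-null group and 81.6 to 116 RPM in the wild type group. The 6 of 6 muscle hairpins, listed as absent from the ovary, summed to more than these in every library, at 165 to 291 RPM. Sums below that level therefore cannot be read as the amount of a cell type. Over all libraries, 2 of 3 erythrocyte hairpins summed to 2.88 to 68.4 RPM and 3 of 4 leukocyte hairpins to 18.7 to 69.4 RPM. None of the listed hairpins was at 0 in all libraries, and the part of other cells in the tRNA levels was not tested.

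The 51 loci held 2.36 ± 0.636% of the tRNA reads in descendants, 2.03 ± 0.427% in Khdc3-null oocytes and 2.97 ± 0.863% in wild type oocytes (SD, n = 4 each), although they made up 11.7% of the tRNA loci. Per library the share was 3.21, 2.46, 2.04 and 1.74% in descendants, 2.60, 2.11, 1.67 and 1.74% in Khdc3-null oocytes, and 1.73, 3.47, 3.06 and 3.63% in wild type oocytes. The groups overlapped, and wild type replicate 1 lay at the low end, close to descendant replicate 4. The 95% Wilson intervals were narrow against these differences, such as 1.69 to 1.77% in wild type replicate 1 and 3.58 to 3.68% in wild type replicate 4. All tRNA loci together stood at 67625 ± 7569 RPM in descendants, 73184 ± 4257 RPM in Khdc3-null oocytes and 69302 ± 3719 RPM in wild type oocytes.

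Most of these reads came from aspartate tRNA. The AspGTC loci, whose tRNA reads the aspartate codons, held 82.5 ± 1.43% of the queuosine-type reads in descendants, 81.7 ± 3.68% in Khdc3-null oocytes and 82.4 ± 6.45% in wild type oocytes (SD, n = 4 each). Per 100 bases of gene, the mean over 12 libraries was 1964 RPM for AspGTC, 133 RPM for AsnGTT, 129 RPM for HisGTG and 110 RPM for TyrGTA, whose gene length includes the intron. The AspGTC sum exceeded each other sum in 12 of 12 libraries, by at least 6.85-fold. The other 3 changed places between libraries, since TyrGTA exceeded AsnGTT in 7 of 12 libraries and HisGTG in 7 of 12, and AsnGTT exceeded HisGTG in 8 of 12. Among 53 tRNA anticodons AspGTC ranked 5, AsnGTT 32, TyrGTA 33, HisGTG 35 and HisATG 53 by mean RPM.

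**Figure D1:**
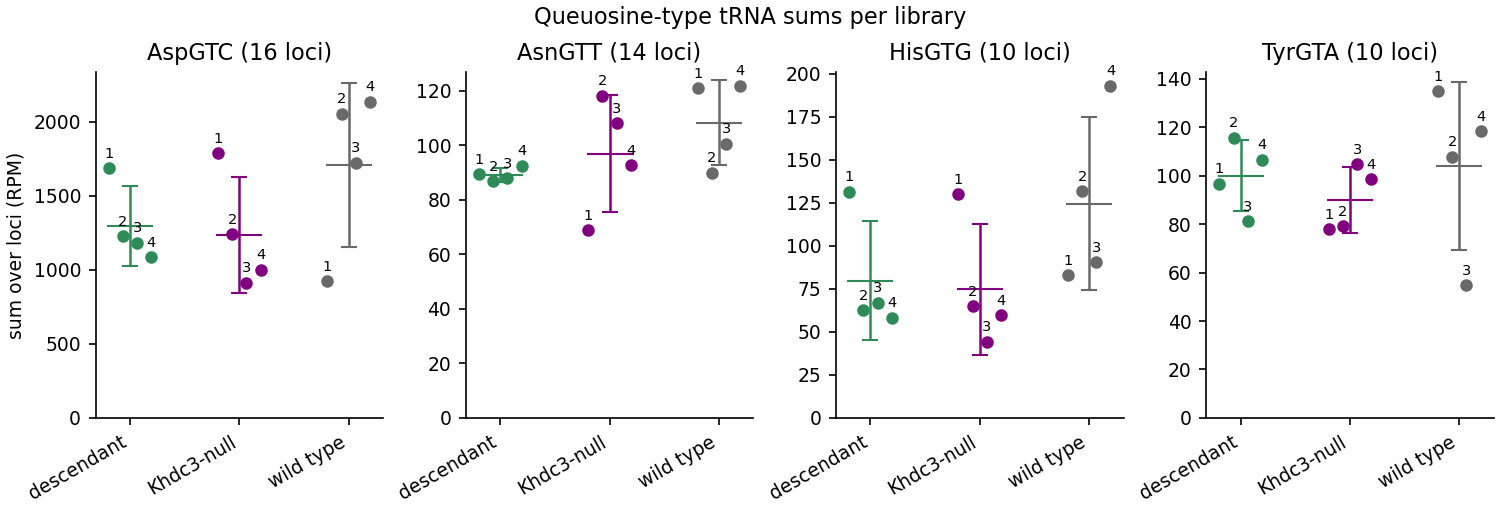
Sum of RPM over the loci of each main queuosine-type anticodon, with 1 numbered point per library and the mean with its SD (n = 4) per group. AspGTC lay between 914 and 2138 RPM and the other 3 sums between 44.3 and 193 RPM, and in every panel the groups overlapped.

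AspGTC summed to 1688, 1227, 1183 and 1088 RPM in descendants, to 1789, 1241, 914 and 1001 RPM in Khdc3-null oocytes and to 924, 2056, 1725 and 2138 RPM in wild type oocytes. The mean was 1296 ± 268 RPM in descendants, 1236 ± 394 RPM in the Khdc3-null group and 1710 ± 554 RPM in the wild type group (SD, n = 4 each). Descendant replicate 1 and Khdc3-null replicate 1 were the highest of their groups, and wild type replicate 1 was the lowest of its group. The fewest AspGTC reads in a library were 3623, for which counting error alone is 1.66%, against coefficients of variation of 20.6% in descendants, 31.8% in Khdc3-null oocytes and 32.4% in wild type oocytes.

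HisGTG, the tRNA of the histidine codons, summed to 132, 62.7, 67.0 and 58.3 RPM in descendants, to 130, 65.1, 44.3 and 59.8 RPM in Khdc3-null oocytes and to 83.0, 132, 90.4 and 193 RPM in wild type oocytes. The same 3 libraries were the highest and the lowest of their groups here. The mean was 79.9 ± 34.6 RPM in descendants, 74.8 ± 38.0 RPM in the Khdc3-null group and 125 ± 50.5 RPM in the wild type group (SD, n = 4 each). The fewest HisGTG reads in a library were 190.

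AsnGTT, the tRNA of the asparagine codons, summed to 89.4, 86.8, 88.0 and 92.5 RPM in descendants, to 68.9, 118, 108 and 92.7 RPM in Khdc3-null oocytes and to 121, 89.9, 101 and 122 RPM in wild type oocytes. The descendant libraries lay close together, with a coefficient of variation of 2.79%. The fewest AsnGTT reads of any library, with a counting error of 6.18%, were in Khdc3-null replicate 1 and not in a descendant library. Even at 878 reads, the most of any library, counting error alone is above 2.79%. The closeness of the descendant libraries therefore cannot be read as a trait of that group. TyrGTA, the tRNA of the tyrosine codons, summed to 96.6, 116, 81.2 and 107 RPM in descendants, to 77.9, 79.1, 105 and 98.6 RPM in Khdc3-null oocytes and to 135, 108, 54.8 and 118 RPM in wild type oocytes. Khdc3-null replicate 1 was the lowest of its group for both sums.

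The libraries were divided into 2 ranges of AspGTC at the largest gap between their sums, after the values were seen. Such a cut gives 2 ranges for any values and is not a test. In 5 libraries (descendant replicate 1, Khdc3-null replicate 1 and wild type replicates 2, 3 and 4) the sum was 1688 to 2138 RPM, and in the other 7 it was 914 to 1241 RPM. HisGTG was 90.4 to 193 RPM in those 5 and 44.3 to 83.0 RPM in the other 7. AsnGTT overlapped between the ranges, at 68.9 to 122 RPM and 86.8 to 121 RPM, and so did TyrGTA, at 54.8 to 118 RPM and 79.1 to 135 RPM. Depth overlapped too, at 3802126 to 7207786 and 2918620 to 7640554 mapped reads. Because of the separate ranges no correlation over all 12 libraries is given. Within the 7 libraries, Pearson's r of AspGTC and HisGTG was 0.09 (two-sided exact permutation p = 0.841, adjusted over 6 pairs of sums 0.841). Spearman's rho was 0.32 (exact permutation p = 0.498, adjusted 0.992), and r was 0.73 over the 5 libraries left without the pair farthest from the AspGTC median. None of the 6 pairs passed, and the lowest adjusted p for r was 0.764. These 7 libraries were chosen by their AspGTC value, which narrows its range. The correlations with AspGTC therefore cannot show whether the sums vary together over all libraries.

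**Figure D2:**
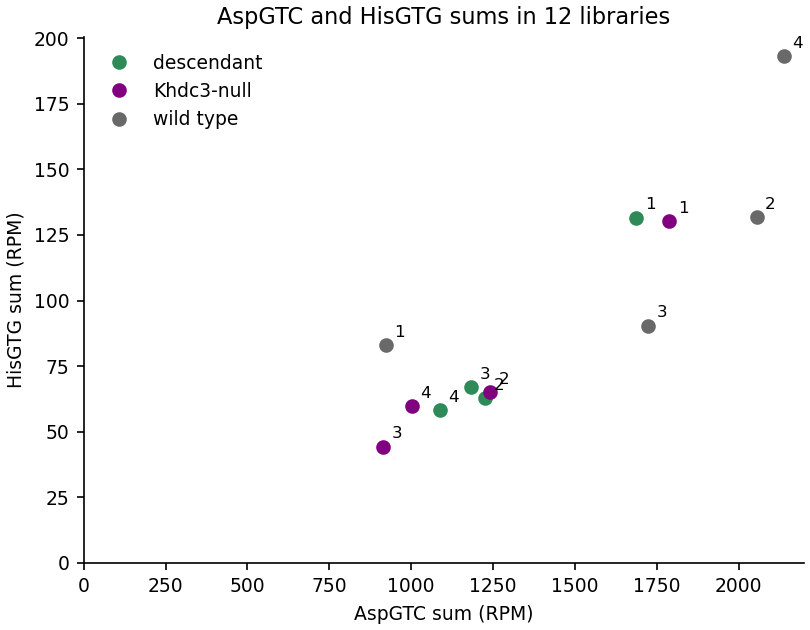
HisGTG sum (RPM, vertical) against AspGTC sum (RPM, horizontal), 1 point per library with its replicate number. The 5 libraries at 1688 RPM or more of AspGTC had 90.4 to 193 RPM of HisGTG, and the other 7 had 44.3 to 83.0 RPM.

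Among other tRNAs known as sources of abundant fragments, GluCTC separated the libraries of these 2 ranges, and GlyGCC and ValCAC did not. The ranges were cut after the values were seen. How many of all tRNAs or features separate them was not counted, so the separation by GluCTC is a description only. GlyGCC, a glycine tRNA, summed to 15878, 11267, 10038 and 12006 RPM in descendants, to 13425, 7827, 7576 and 8606 RPM in Khdc3-null oocytes and to 13752, 11271, 8577 and 16473 RPM in wild type oocytes. GluCTC, a glutamate tRNA, stood at 14264 RPM in Khdc3-null replicate 1 and at 5589 to 7682 RPM in the rest of the higher AspGTC range. In the libraries of the lower AspGTC range it stood at 3856 to 5303 RPM. ValAAC, a valine tRNA that like AspGTC and GlyGCC is a known DNMT2 substrate, was 188 RPM in Khdc3-null replicate 1, its lowest library, and up to 332 RPM in descendant replicate 1. ValCAC, another valine tRNA, was likewise lowest in Khdc3-null replicate 1, at 336 RPM, and highest in descendant replicate 1, at 692 RPM. Both libraries belong to the higher AspGTC range, and in the lower range ValCAC stood at 431 to 618 RPM.

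Within the Asp loci, 13 of 16 had nearly the same value in each library. Their means over 12 libraries were 78.6 to 82.6 RPM, and together they held 74.2% of the AspGTC reads. Across the 13 loci of a library the variance of the reads was 0.945 times their mean (median of 12 libraries, range 0.493 to 1.46), where counting error alone gives 1. The same ratio over all 16 loci was 248. This set was chosen after its values were seen and is given without a test, and the 13 loci are not independent measurements. Their mean per locus was 94.2, 64.7, 67.2 and 60.7 RPM in the descendant libraries, 113, 74.1, 51.2 and 55.2 RPM in Khdc3-null oocytes and 51.6, 118, 93.5 and 125 RPM in wild type oocytes.

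The 3 other Asp loci stood apart. The highest was chr10.trna866-AspGTC, with 408, 341, 253 and 247 RPM in the descendant libraries, 265, 238, 207 and 238 RPM in Khdc3-null oocytes and 212, 463, 467 and 439 RPM in wild type oocytes. Wild type replicates 2 to 4 lay above all other libraries, and wild type replicate 1 lay among the Khdc3-null ones. Its share of the AspGTC reads was 24.0 ± 2.76% in descendants, 20.1 ± 4.02% in Khdc3-null oocytes and 23.3 ± 2.73% in wild type oocytes (SD, n = 4 each). The locus chr5.trna1610-AspGTC varied less, at 45.5 ± 3.59 RPM in descendants, 42.8 ± 3.74 RPM in the Khdc3-null group and 48.7 ± 14.3 RPM in the wild type group (SD, n = 4 each). The intronic chr2.trna511-AspGTC was lowest, with 6.27, 3.53, 12.4 and 4.48 RPM in the descendant libraries, 12.1, 0.685, 0.876 and 3.29 RPM in Khdc3-null oocytes and 5.21, 3.69, 1.73 and 1.80 RPM in wild type oocytes. By mean level chr1.trna1002-AspGTC (82.6 RPM) and chr5.trna1317-AspGTC (82.3 RPM) came after chr10.trna866-AspGTC, and both belonged to the 13 like-valued loci.

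**Figure D3:**
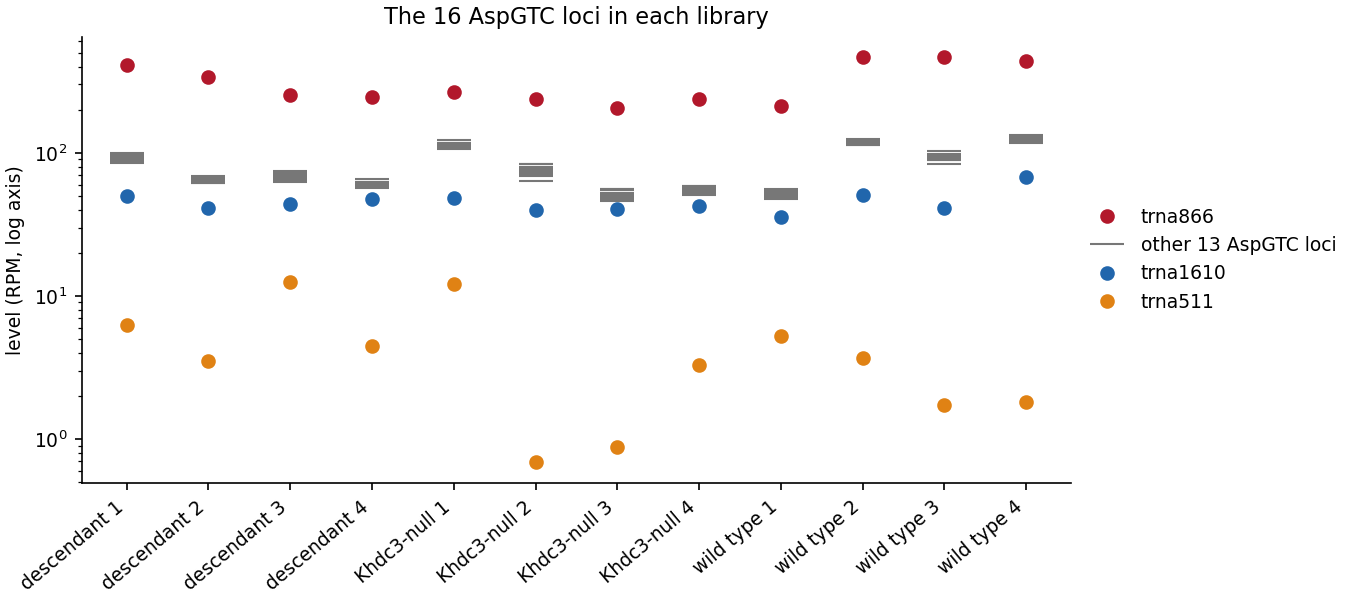
Level (RPM, log axis) of the 16 AspGTC loci in each library, with grey bars for the 13 loci of like value and coloured points for the other 3. In every library the 13 loci lay in a narrow band, from 45.7 RPM at the lowest to 133 RPM at the highest over all libraries, with trna866 above it and trna1610 and trna511 below it.

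Like values were also seen in the other families. In 8 of the 10 HisGTG loci the variance of the reads within a library was 0.863 times the mean (median of 12 libraries), and these 8 held 92.1% of the HisGTG reads. In 9 of the 14 AsnGTT loci it was 0.861 times the mean, and they held 58.8% of the AsnGTT reads. Both sets were likewise chosen after their values were seen. The 10 TyrGTA loci had a median ratio of 72.6, and no such set was formed among them.

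The highest HisGTG loci were chr2.trna587-HisGTG, chr2.trna1431-HisGTG and chr3.trna751-HisGTG, with means of 11.8, 11.2 and 11.1 RPM. The 2 loci outside the like-valued set, chr3.trna749-HisGTG and chr3.trna293-HisGTG, had means of 3.78 and 3.54 RPM. The locus without the exchanged guanine, chr1.trna717-HisATG, was the lowest His locus, with 0.358, 4.58, 4.87 and 0.717 RPM in the descendant libraries, 1.58, 1.03, 0.292 and 0.685 RPM in Khdc3-null oocytes and 0.434, 6.62, 0 and 4.72 RPM in wild type oocytes. The 0 stood in wild type replicate 3, where it allows up to 0.741 RPM. Its 4 values above 4 RPM were in descendants and wild type oocytes, and other libraries of both groups lay within or below the Khdc3-null values.

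Among the Asn loci, chr3.trna283-AsnGTT was the highest on average, with 18.8, 23.8, 4.87 and 0.538 RPM in the descendant libraries, 15.8, 9.25, 8.18 and 4.66 RPM in Khdc3-null oocytes and 6.36, 18.3, 12.1 and 22.8 RPM in wild type oocytes. The spread within the descendants covered the whole range of all libraries. The next were chr3.trna285-AsnGTT, with a mean of 10.1 RPM, and chr3.trna757-AsnGTT, with a mean of 7.90 RPM. The lowest, chr15.trna1013-AsnGTT, lay between genes at 16275950 to 16276023 on chromosome 15 and had 0.358, 1.57, 0.671 and 2.69 RPM in the descendant libraries, 0, 3.43, 1.75 and 0.685 RPM in Khdc3-null oocytes and 4.48, 11.1, 1.98 and 1.39 RPM in wild type oocytes.

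The Tyr loci differed among themselves beyond counting error. The highest, chr13.trna106-TyrGTA, had a mean of 31.2 RPM and chr13.trna971-TyrGTA of 21.5 RPM, while the lowest, chr13.trna970-TyrGTA, had a mean of 1.77 RPM and no read in 2 of 12 libraries. All 3 lie on chromosome 13, which holds the cluster of 6 genes. The locus chr14.trna192-TyrGTA, alone on its chromosome at 51089489 to 51089578, had a mean of 9.70 RPM.

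**Figure D4:**
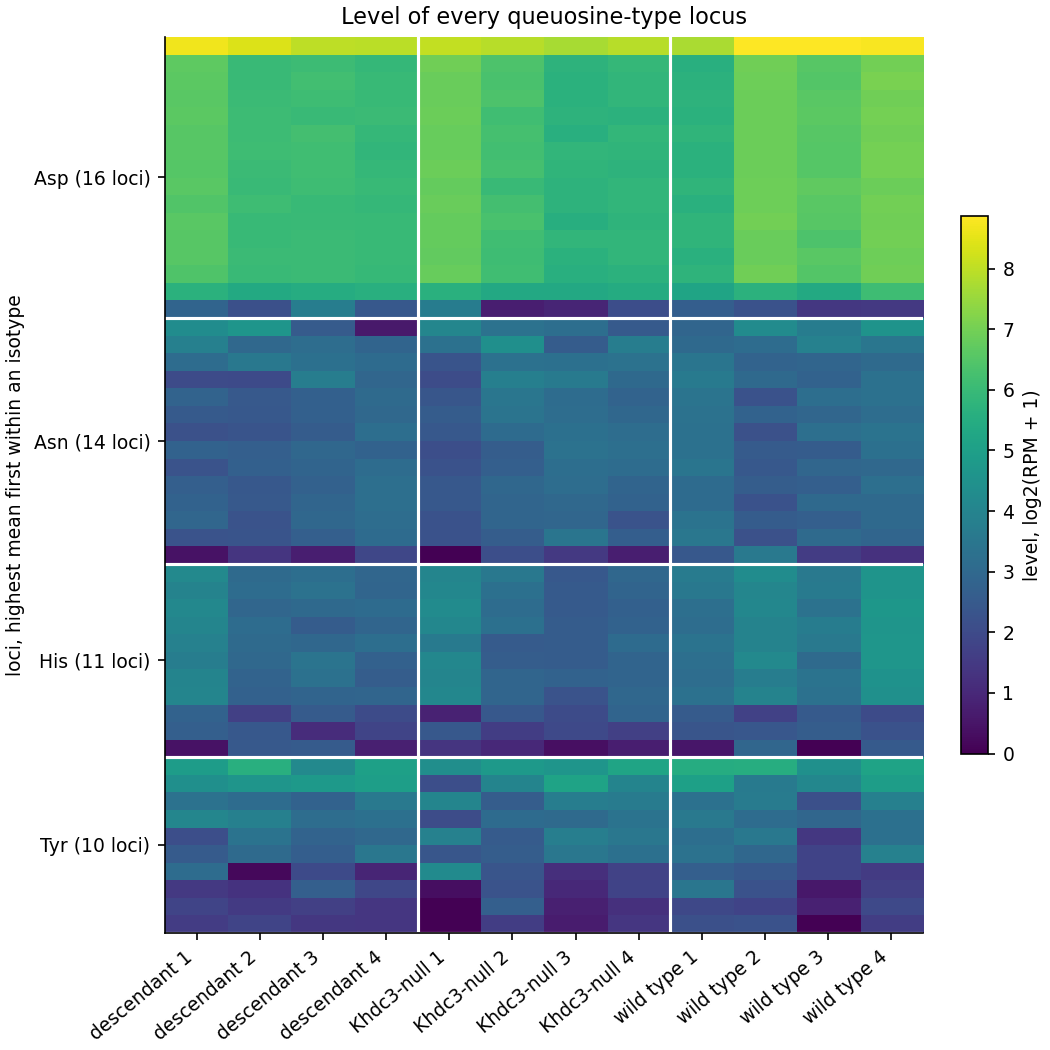
Level of each of the 51 loci (rows, by isotype and falling mean) in each of the 12 libraries (columns, by group), coloured by log2(RPM + 1). The block of like-valued Asp loci changes together from library to library, brightest in wild type replicates 2 and 4 and Khdc3-null replicate 1.

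Differences between groups were tested for every feature of the table with limma on log2(RPM + 1). All 51 members were among the 1889 features with 1.61 RPM or more in 4 or more libraries, a level worth 10 reads in a library of median depth. A feature was called at a Benjamini-Hochberg adjusted p under 0.05 over all 1889. Log2 changes refer to RPM + 1 and understate those of low loci. None of the 51 members was called in any of the 3 comparisons, where 0.00% of all tested features were called in each.

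The first comparison asked how Khdc3-null oocytes differ from wild type oocytes. Asp and His loci had lower values in Khdc3-null oocytes without passing the test, and the lowest adjusted p of a member was 0.875. Before adjustment 2 of 51 members had a p under 0.05, both lower, against a background of 5.03% of all tested features (3.49% lower) and 16 of the 338 other tRNA loci tested. They were chr10.trna866-AspGTC, at a log2 change of -0.67 (SE 0.24, limma adjusted p = 0.875), and chr4.trna1691-HisGTG, the locus in the Nfib intron, at -0.95 (SE 0.39, limma adjusted p = 0.945). The third by p was chr2.trna1431-HisGTG at -0.79 (limma adjusted p = 0.945).

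Leaving out 1 library moved this unadjusted count. Without Khdc3-null replicate 1 it was 15, without wild type replicate 1 it was 14, of which 13 were Asp loci, and without wild type replicate 2 it was 1. The lowest adjusted p of a member in these fits was 0.170, without wild type replicate 1, so no member was called in any of them.

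The log2 change was below 0 for 46 of 51 members, with a median of -0.37. With 1 library left out the count ran from 35, without wild type replicate 1, to 46. The median ran from -0.57 without Khdc3-null replicate 1 (37 members below 0) to -0.26 without wild type replicate 4 (38 members below 0). Over all tested features the log2 change was below 0 for 59.3%, with a median of -0.05, and over the other tRNA loci for 61.2%. The loci of like value are counted separately here although they do not vary independently. By isotype it was below 0 for 16 of 16 AspGTC, 12 of 14 AsnGTT, 10 of 10 HisGTG and 7 of 10 TyrGTA loci, with medians of -0.38, -0.07, -0.70 and -0.37. The members ran from -1.13 (chr15.trna1013-AsnGTT) to 0.57. The groups overlapped for all 51 members, against a background of 3.18% of features whose groups did not overlap. The 95% interval left out a 2-fold change in both directions for 12 of 51 members, against 56.2% of all tested features.

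Sums by anticodon do not depend on which copy a read was placed on, and they were tested in a table of 1553 features. None was called, against 0.00% of that table. HisGTG had a log2 change of -0.76 between Khdc3-null and wild type oocytes (95% interval -1.48 to -0.04, unadjusted p = 0.0395, limma adjusted p = 0.991). It was the 1 of 5 sums with an unadjusted p under 0.05, against 4.76% of all features in that table, and its p was above 0.05 with median-of-ratios scaling and without any 1 of Khdc3-null replicates 2, 3 and 4 and wild type replicates 2 and 4. AspGTC had a log2 change of -0.45 (interval -0.96 to 0.07, limma adjusted p = 0.992). Its unadjusted p was under 0.05 without Khdc3-null replicate 1 and without wild type replicate 1, as was that of TyrGTA without wild type replicate 3, and the lowest limma adjusted p of a sum in these 3 fits was 0.512. AsnGTT stood at -0.17, TyrGTA at -0.14 and HisATG at -0.61, with intervals that included 0. The intervals of AspGTC, AsnGTT and TyrGTA lay within 2-fold in either direction, and those of HisGTG and HisATG did not.

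The second comparison set descendants, which carry no null allele, against wild type oocytes. No member had an unadjusted p under 0.05, against a background of 4.08%, and the lowest adjusted p of a member was 0.946. Without wild type replicate 1 there were 14 such members, all Asp loci, without descendant replicate 1 there were 2, both His loci, and without wild type replicate 4 there was 1. The 3 members of smallest p were chr15.trna1013-AsnGTT at a log2 change of -1.11, chr2.trna587-HisGTG at -0.70 and chr4.trna1691-HisGTG at -0.62 (limma adjusted p = 0.946 each).

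The log2 change was below 0 for 43 of 51 members, against 54.1% of all tested features, and the median was -0.35 against -0.02 over all features. Without wild type replicate 4 it was below 0 for 37 members and the median was -0.21. It was below 0 for 15 of 16 AspGTC loci, all but chr2.trna511-AspGTC at 0.86, and for 12 of 14 AsnGTT, 9 of 10 HisGTG and 7 of 10 TyrGTA loci. The groups overlapped for all 51 members, against a background of 2.75%. The 95% interval left out a 2-fold change for 14 of 51 members, against 55.1% of all tested features. Of the sums, HisGTG stood at -0.64 (interval -1.36 to 0.09), AspGTC at -0.35 (interval -0.87 to 0.17), AsnGTT at -0.27 (interval -0.66 to 0.13), HisATG at 0.07 and TyrGTA at 0.01, with limma adjusted p-values of 0.965 to 0.995. None of the 5 sums had an unadjusted p under 0.05, against 4.44% of that table. Without wild type replicate 1 both AspGTC and HisGTG did, and HisGTG did without descendant replicate 1 and with limma-voom.

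These comparisons share the wild type libraries, so that a low or high wild type library enters both. Wild type replicate 1 had 924 RPM of AspGTC where the other wild type libraries had 1725 to 2138 RPM. With neither group wild type, descendants against Khdc3-null oocytes gave a median log2 change of 0.04 over the 51 members, against 0.05 over all tested features. The change was below 0 for 20 of 51 members, against 43.2% of all tested features. Single libraries turned this direction: without descendant replicate 1 the change was below 0 for 32 members with a median of -0.066, and without Khdc3-null replicate 3 or 4 for 28 members with medians of -0.060 and -0.028. Without Khdc3-null replicate 1 the median was 0.21, against -0.0073 over all features. Without Khdc3-null replicate 2 or descendant replicate 2, 3 or 4 it was 0.058 to 0.11, with 15 to 18 members below 0. The count was 10 with equal tRNA totals, where the median was 0.16 over the members and 0.16 over all features. No member had an unadjusted p under 0.05, against 6.41%, and none had groups that did not overlap, against 3.02%. The 95% interval left out a 2-fold change for 24 of 51 members, against 54.3% of all tested features. The lowest adjusted p of a member was 0.731. Without Khdc3-null replicate 1, and likewise without Khdc3-null replicate 3, 1 member had an unadjusted p under 0.05.

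The members of smallest p in descendants against Khdc3-null oocytes were chr13.trna973-TyrGTA at a log2 change of 0.71, chr13.trna971-TyrGTA at 0.88 and chr10.trna866-AspGTC at 0.37 (limma adjusted p-values of 0.731 to 0.749). The locus chr13.trna971-TyrGTA had 20.3, 24.0, 26.7 and 30.1 RPM in the descendant libraries, 3.42, 15.1, 34.2 and 14.9 RPM in Khdc3-null oocytes and 31.8, 11.2, 16.1 and 29.8 RPM in wild type oocytes. Its lowest value was in Khdc3-null replicate 1 and its highest in Khdc3-null replicate 3, so the Khdc3-null group spanned the other groups. Of the sums, HisATG stood at 0.69, TyrGTA at 0.15, HisGTG at 0.13, AspGTC at 0.10 and AsnGTT at -0.09, with limma adjusted p-values of 0.852 to 0.929. None had an unadjusted p under 0.05, against 6.44% of that table. The intervals of AspGTC (-0.42 to 0.62), AsnGTT (-0.49 to 0.30), HisGTG (-0.59 to 0.85) and TyrGTA (-0.36 to 0.66) lay within 2-fold.

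**Figure D5:**
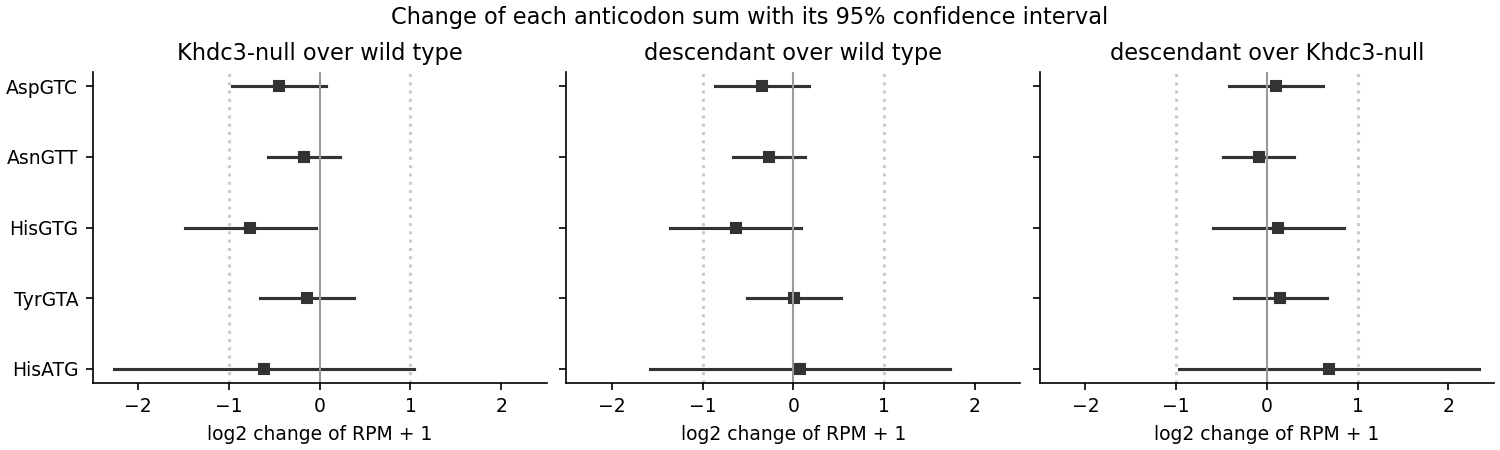
Log2 change of RPM + 1 for each queuosine-type anticodon sum (squares) with its 95% confidence interval (lines) from limma, in 3 comparisons of 4 libraries each. Dotted lines mark 2-fold changes, and the interval of HisGTG in Khdc3-null against wild type oocytes (-1.48 to -0.04) is the only one of the 15 that does not include 0.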

How the data were processed

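Small RNA of 12 mouse oocyte libraries was isolated with the PicoPure kit and made into libraries with the NEXTFLEX kit, per the labels' protocols. Reads were aligned to mm10 with Bowtie2, per the submitters' processing notes. The version, the counting tool and how a read with several alignments was handled are not given in the sources used here, and near-identical tRNA copies are uncertain for that reason. The deposited values are RPM with 1 added. After subtraction, 100% of them were whole multiples of a step per library within 0.01 reads, which gave the mapped reads (2918620 to 7640554). No count test was the main result. limma 3.58.1 in R 4.3.3 was run with a variance trend on log2(RPM + 1), with 1 mean per group over all 12 libraries, for features at 1.61 RPM or more in at least 4 libraries (1889 kept, 141 removed). The fit was tested on simulated data, but the outcome is not given here. It therefore does not show how small a change could have been called. Exact permutation tests, intervals and figures used numpy 2.4.6, scipy 1.17.1 and matplotlib 3.10.9. Other settings were 0.25 or 5 RPM added, no filter, other scalings, 8 libraries only, limma-voom on the whole reads, and each library left out.

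Members, lists and tests were chosen with earlier results of these data known. Named loci were, per isotype, the 3 of highest and the 1 of lowest mean, any without a guanine in first place of the anticodon, and per comparison the 3 of smallest p. Loci outside this rule, and the sets of like-valued loci, were named after their values were seen.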

Additional observations from a re-analysis of the deposited data

Results flagged for a closer look

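Each of the 3 groups of 4 libraries was looked at for the named loci, the 4 main anticodon sums and the share of tRNA reads. This made 69 cases. In 5 cases a library's gap to the nearest other, divided by the group's range, was above Dixon's 95% critical value for 4 libraries. Chance gives about 1 in 20 cases. The flags of HisGTG below are not separate, since the sum includes its loci. The locus chr10.trna866-AspGTC had 212 RPM in wild type replicate 1 and 439 to 467 RPM in the other wild type libraries. HisGTG summed to 132 RPM in descendant replicate 1 and to 58.3 to 67.0 RPM in the other descendants. Of its loci, chr2.trna587-HisGTG had 16.8 RPM in that library and 6.63 to 8.23 RPM in the others, and chr3.trna751-HisGTG had 16.5 RPM against 6.67 to 7.53 RPM. The locus chr3.trna757-AsnGTT had 3.95 RPM in Khdc3-null replicate 1 and 8.62 to 9.19 RPM in the other Khdc3-null libraries.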

How the results depend on the processing

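None of the 51 loci and none of the anticodon sums was called in any setting tried. The sums per isotype and the shares of tRNA reads stayed within 1 SD of their values, which is not a test. Leaving out 1 of 4 libraries cannot move a mean by 1 SD. All 51 loci passed the filter, and the HisATG locus left out in another setting was a small part of the His sum. In the 3 comparisons, the direction of a log2 change turned in 9 of 483 values under another setting and in 55 of 552 values with 1 library left out, where the value itself was not called; the cause was not tested. Scaling to equal tRNA totals moved the median of all features to -0.13 in Khdc3-null against wild type oocytes and to 0.16 in descendants against Khdc3-null oocytes. In Khdc3-null against wild type oocytes, the log2 change turned to 0.055 for chr2.trna511-AspGTC with 5 RPM added and to -0.057 for chr3.trna757-AsnGTT with equal tRNA totals. With 1 library left out it ran from -0.098 to 0.57 for chr14.trna192-TyrGTA, from -0.70 to 0.29 for chr2.trna511-AspGTC, from -0.17 to 0.44 for chr3.trna285-AsnGTT, from -0.090 to 0.26 for chr3.trna757-AsnGTT and from -0.42 to 0.0084 for the TyrGTA sum. In descendants against wild type oocytes, 5 RPM added gave -0.021 for chr1.trna717-HisATG and the HisATG sum, which is the same locus, and -0.044 for chr13.trna970-TyrGTA. There limma-voom gave -0.058 for the TyrGTA sum. With 1 library left out the change ran from -0.42 to 0.55 for chr1.trna717-HisATG and the HisATG sum, from -0.45 to 0.035 for chr13.trna106-TyrGTA, from -0.46 to 0.28 for chr13.trna970-TyrGTA, from -0.42 to 0.16 for chr14.trna192-TyrGTA, from -0.38 to 0.0066 for chr3.trna285-AsnGTT and from -0.27 to 0.16 for the TyrGTA sum. In descendants against Khdc3-null oocytes, equal tRNA totals gave 0.026 for chr1.trna1002-AspGTC and 0.026 for the AsnGTT sum, and 5 RPM added gave -0.019 for chr15.trna1013-AsnGTT. With 1 library left out the change ran from -0.27 to 0.14 for chr1.trna1002-AspGTC, from -0.13 to 0.27 for chr5.trna1317-AspGTC and from -0.036 to 0.29 for the AspGTC sum. For Asn it ran from -0.35 to 0.37 for chr15.trna1013-AsnGTT, from -0.79 to 0.55 for chr3.trna283-AsnGTT, from -0.60 to 0.0061 for chr3.trna285-AsnGTT, from -0.048 to 0.30 for chr3.trna757-AsnGTT and from -0.24 to 0.012 for the AsnGTT sum. For His it ran from -0.060 to 0.47 for chr2.trna1431-HisGTG, from -0.17 to 0.36 for chr2.trna587-HisGTG, from -0.14 to 0.51 for chr3.trna751-HisGTG and from -0.14 to 0.43 for the HisGTG sum, and for chr13.trna106-TyrGTA from -0.019 to 0.45. At an unadjusted p under 0.05, limma-voom gave 4 loci in Khdc3-null against wild type oocytes where limma on log2(RPM + 1) gave 2. No paired analysis was possible because the labels give no replicate numbers, and the numbers used here follow the order in which the series lists the libraries. Low loci rest on few reads, down to 0 in a library for chr13.trna970-TyrGTA, and depth limits what can be read from them.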
